A study of Mus musculus with 8 samples.

Results

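The T-cell receptors (TCRs) of young injured mouse brains were compared between mice given an anti-CD49d antibody (YTBI_aCD49d) and mice given its isotype control (YTBI_Isotype). The members were every clonotype of these 2 single-cell TCR libraries, 694 of the 1693 clonotypes in the 4 TCR libraries of the series, carried by 839 of 2986 cells. YTBI_Isotype held 230 clonotypes in 262 cells, and YTBI_aCD49d held 464 clonotypes in 577 cells. Both libraries came from male C57BL/6 mice, aged 13 to 15 weeks when a traumatic brain injury (TBI) was made by controlled cortical impact. The mice received 300 µg of the anti-CD49d antibody PS/2 or of the isotype antibody LTF-2 at 2 h after injury and again every 2 weeks. Brain cells were sorted for CD45, a surface protein of white blood cells, 2 months after TBI, and the cells of 2 mice were pooled into each library. All mice were injured, and no library of uninjured young brain was part of the comparison. With 1 pool per treatment there is no replicate, so no difference between the libraries was tested, and the mice cannot be told apart within a pool. The transcriptomes of these cells were not analysed here, so the cells are known as T cells from their receptors alone.

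A T cell builds its receptor by joining gene segments. The beta chain takes 1 V, 1 D and 1 J segment from the TRB locus on chromosome 6, and the alpha chain takes 1 V and 1 J segment from the TRA locus on chromosome 14. The join, with bases trimmed and added between the segments, encodes the complementarity-determining region 3 (CDR3), the stretch of the chain that mainly touches the presented peptide. CD49d is the alpha 4 integrin chain, with which lymphocytes bind VCAM-1 on inflamed vessels and enter the brain, and the antibody PS/2 blocks this binding.

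The invariant alpha chain of natural killer T (iNKT) cells was the alpha V-J pair with most clonotypes in both young libraries. It joins TRAV11 to TRAJ18 and binds lipids presented by CD1d. The nucleotides of its CDR3, from the codon of the conserved cysteine to that of the phenylalanine that opens the J motif, came in 4 forms that differ in the single base printed in capitals and encode the same amino acids. They are shown because each is a separate rearrangement that ended in the same protein:
form A: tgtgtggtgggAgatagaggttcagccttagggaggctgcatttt
form C: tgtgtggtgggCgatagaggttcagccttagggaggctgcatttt
form G: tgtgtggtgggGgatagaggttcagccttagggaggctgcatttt
form T: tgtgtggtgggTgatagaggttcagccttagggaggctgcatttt
Form A was carried by 7 clonotypes of YTBI_Isotype and 7 of YTBI_aCD49d, form C by 4 and 12, form G by 6 and 12, and form T by 1 and 0. All forms but form T were therefore present on both sides.

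The beta segment TRBV31 had the largest ratio of shares between the libraries among the TRBV segments tested, and some of its CDR3s are shown to let the joins be compared. Capitals mark the bases that match neither the germline V nor the germline J segment, which hold the D segment and added bases. The 4 TRBV31 chains of YTBI_Isotype were:
isotype, with TRBJ2-7: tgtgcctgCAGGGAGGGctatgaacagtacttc
isotype, with TRBJ2-5: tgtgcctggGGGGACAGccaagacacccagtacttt
isotype, with TRBJ2-1: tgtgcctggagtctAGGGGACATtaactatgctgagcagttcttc
isotype, with TRBJ2-2: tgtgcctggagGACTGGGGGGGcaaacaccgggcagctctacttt
The 3 TRBV31 chains of YTBI_aCD49d found in more than 1 cell were:
aCD49d, with TRBJ2-4: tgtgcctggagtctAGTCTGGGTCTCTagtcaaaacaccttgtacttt
aCD49d, with TRBJ1-6: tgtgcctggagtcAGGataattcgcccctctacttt
aCD49d, with TRBJ2-5: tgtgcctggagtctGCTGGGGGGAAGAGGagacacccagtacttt
No 2 of these share a junction. The first of the YTBI_aCD49d chains belonged to the largest clone of that library, with 33 cells.

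The libraries differed in size but little in how complete the receptors were. The beta chain had a median of 11 unique molecular identifiers (UMIs, one for each captured transcript) per cell in YTBI_Isotype and 9 in YTBI_aCD49d, and the alpha chain 4 and 3. Both chains were found in 183 of the YTBI_Isotype clonotypes (79.6%) and in 364 of the YTBI_aCD49d clonotypes (78.4%). A beta chain alone was found in 37 (16.1%) and 89 (19.2%). A pair of beta chains, which can come from 2 cells in 1 droplet, was found in 10 clonotypes of YTBI_Isotype (4.35%) and 3 of YTBI_aCD49d (0.647%), a difference of -3.70 percentage points (95% interval -7.24 to -1.14). Values without such clonotypes are given where they matter. In all, 230 beta and 207 alpha chains of YTBI_Isotype and 456 beta and 408 alpha chains of YTBI_aCD49d were compared, each clonotype counted once, so that 1 clonotype is 0.435% of the smaller set of beta chains. Intervals are 95% intervals and cover counting error only. They do not hold the spread between mice, and cells of 1 clone are not independent. They are not adjusted for the number of segments and pairs compared. Among that many, some can exclude 0 by counting error alone, so an interval without 0 does not by itself mark a difference.

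TRBV31 and TRBV29 had larger shares under aCD49d, and TRBV19 and the joint call TRBV12-2+TRBV13-2 had smaller ones. A segment was called when its shares differed at least 2-fold and it had at least 10 chains over both libraries. Of 20 TRBV segments tested in this sense, 2 were called (10%), both higher under aCD49d. The interval of the difference excluded 0 for 3 of the 20: TRBV31, TRBV19 and the joint call TRBV12-2+TRBV13-2. TRBV31 was used by 4 of 230 clonotypes in YTBI_Isotype (1.74%) and by 30 of 456 in YTBI_aCD49d (6.58%). The difference was 4.84 points (1.46 to 7.80), a ratio of 3.78 (1.33 to 14.8). TRBV29 was used by 8 clonotypes (3.48%) and 33 clonotypes (7.24%), a ratio of 2.08 (0.942 to 5.21). The interval of TRBV29 includes equal shares, and that of TRBV31 does not.

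**Figure D1:**
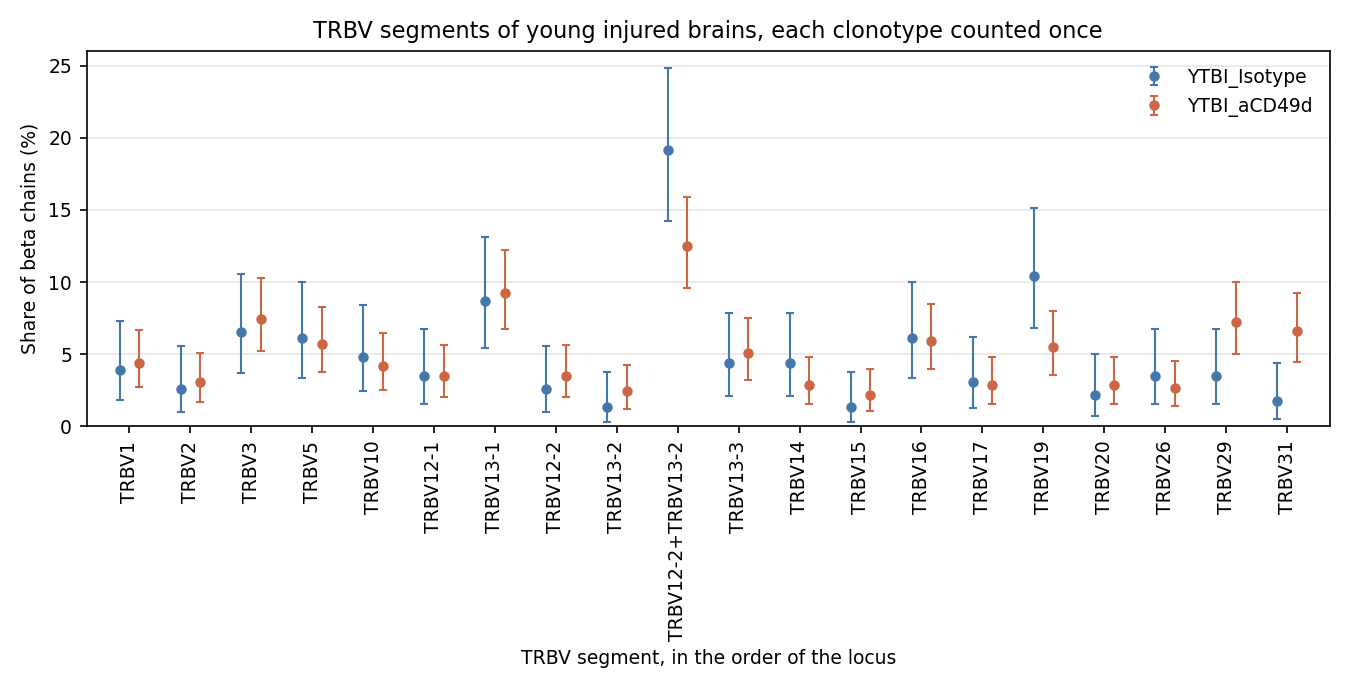
Share of beta chains (y axis, percent) that used each of the 20 TRBV segments with at least 10 chains, in the order of the locus (x axis), with each clonotype counted once. Blue points are YTBI_Isotype, orange points YTBI_aCD49d, and bars are exact 95% intervals. TRBV31, at the right end, was at 1.74% and 6.58%, and the joint call TRBV12-2+TRBV13-2 at 19.1% and 12.5%.

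The segments with the most chains included both near-equal and unequal pairs of shares. The joint call TRBV12-2+TRBV13-2 names a pair of neighbouring segments together, as the deposited calls give it, and was kept apart from chains called with TRBV12-2 or TRBV13-2 alone. It led both libraries, with 44 clonotypes (19.1%) in YTBI_Isotype and 57 (12.5%) in YTBI_aCD49d, a difference of -6.63 points (-13.01 to -0.694). TRBV19 followed in YTBI_Isotype with 24 clonotypes (10.4%) and had 25 (5.48%) in YTBI_aCD49d, which was 1.90-fold lower (1.04 to 3.47) and short of the 2-fold limit. By cell TRBV19 had 26 (9.92%) and 35 (6.19%), a difference of -3.73 points (-8.39 to 0.334). TRBV13-1 differed little, with 20 (8.70%) and 42 (9.21%). TRBV3 had 15 (6.52%) and 34 (7.46%), and TRBV16 had 14 (6.09%) and 27 (5.92%). The TRBV13 subgroup with the joint call took 33.5% of YTBI_Isotype and 29.2% of YTBI_aCD49d clonotypes, a difference of -4.31 points (-12.0 to 3.19). TRBV12-1 and TRBV12-2 together took 6.09% and 7.02%. TRBV10, with 11 and 19 clonotypes, is listed by the annotation as a pseudogene, although the deposited calls give productive chains with it.

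TRBV31 differs from the other TRBV segments in position. It lies at chr6:41557691-41558452 on the minus strand (GRCm38, GENCODE vM21), 9339 bases beyond the end of Trbc2, the last constant gene, while the other TRBV segments used here lie upstream of the D and J segments on the plus strand. Its join to a J segment is therefore an inversion. The 30 clonotypes of YTBI_aCD49d used 9 different TRBJ segments, led by TRBJ2-4 with 7 and TRBJ2-7 with 6, and 22 of the 30 used the TRBJ2 cluster. The 4 of YTBI_Isotype used 4 different TRBJ segments, all of the TRBJ2 cluster. That cluster took 70.0% of all beta chains in YTBI_Isotype and 67.8% in YTBI_aCD49d. Of the 30, 27 were single cells (91.6% over all clonotypes of YTBI_aCD49d), 26 had an alpha chain and 1 carried the invariant alpha chain. The 30 clonotypes thus held many rearrangements. With each clonotype counted once, a clone of any size adds 1 count to this share. By cell, TRBV31 was found in 4 of the beta chains of YTBI_Isotype (1.53%) and 61 of YTBI_aCD49d (10.8%), a ratio of 7.07 (2.62 to 26.8). Of these 61, 30 belonged to the largest clone. Without the largest clone of each library the by-cell counts were 4 and 31 and the ratio 3.69 (1.31 to 14.4).

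TRBV29 lies at chr6:41271394-41271881, near the J-proximal end of the upstream segments. Its 33 clonotypes in YTBI_aCD49d were all single cells and joined 11 different TRBJ segments, and the 8 in YTBI_Isotype joined 4. The ratio of TRBV29 was under 2-fold by cell, at 1.53, and 1.98 without clonotypes of the invariant alpha chain, of which TRBV29 had 1 in YTBI_Isotype and 5 in YTBI_aCD49d. It was 1.87 without clonotypes whose chains could come from 2 cells. TRBV29 therefore sits at the 2-fold limit, and TRBV31 stayed above it under each of these choices.

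TRBJ segments differed by less than 2-fold. None of the 12 TRBJ segments was called (0%), and by clonotype no interval of a difference excluded 0. TRBJ2-7 led both libraries with 40 clonotypes (17.4%) in YTBI_Isotype and 99 (21.7%) in YTBI_aCD49d, a difference of 4.32 points (-2.33 to 10.5). TRBJ2-1 had 35 (15.2%) and 46 (10.1%), a difference of -5.13 points (-11.0 to 0.261). By cell TRBJ2-1 had 44 (16.8%) and 56 (9.91%), a difference of -6.88 points (-12.5 to -1.75). This interval excluded 0 but counts cells of 1 clone as independent, which they are not. The YTBI_Isotype clones ranked 2 and 3 by size, with 4 cells each, both used TRBJ2-1. TRBJ2-5 had 27 (11.7%) and 59 (12.9%). The TRBJ1 cluster as a whole had 30.0% of YTBI_Isotype and 32.2% of YTBI_aCD49d clonotypes, a difference of 2.24 points (-5.43 to 9.62). The constant gene follows the J cluster, and TRBC1 was found with 69 and 146 clonotypes against 69 and 147 with a TRBJ1 segment. A D segment was called in few chains. TRBD1 was named in 16.1% and 17.8%, TRBD2 in 10.0% and 7.46%, and none in 73.9% and 74.8%.

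Pairs of V and J segments differed more often than segments did, on far fewer clonotypes each. Of 44 TRB pairs with at least 5 clonotypes, 18 were called at 2-fold (40.9%), 12 higher and 6 lower under aCD49d. Only 2 of the 44 had an interval that excluded 0, both lower under aCD49d. The joint call with TRBJ2-1 had 10 clonotypes in YTBI_Isotype (4.35%) and 5 in YTBI_aCD49d (1.10%), a difference of -3.25 points (-6.83 to -0.583). TRBV19 with TRBJ1-1 had 5 (2.17%) and 1 (0.219%), a difference of -1.95 points (-4.79 to -0.183). The joint call with TRBJ2-4 was called lower with 7 and 4 clonotypes.

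Among the called pairs that were higher under aCD49d, TRBV13-1 with TRBJ2-7 differed by the most points, with 2 and 10 clonotypes (0.870% and 2.19%). TRBV3 with TRBJ2-7 followed with 1 and 7. TRBV5 with TRBJ2-7, TRBV5 with TRBJ2-5 and TRBV31 with TRBJ2-7 were level at 1 and 6. Their intervals all include equal shares, and the ratio for TRBV13-1 with TRBJ2-7 was 2.52 (0.537 to 23.7). Of the 3 pairs with most clonotypes, the joint call with TRBJ2-5 had 10 and 12, the joint call with TRBJ2-7 had 4 and 13, and the joint call with TRBJ2-1 was given above. The 11 called pairs with 1 clonotype in YTBI_Isotype had 4 to 7 in YTBI_aCD49d. A further 4 tested pairs had 0 in YTBI_Isotype, among them TRBV31 with TRBJ2-4, which had 7 in YTBI_aCD49d. A count of 0 allows up to 3 clonotypes, or 1.30% of the chains, so these pairs could not be called.

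**Figure D2:**
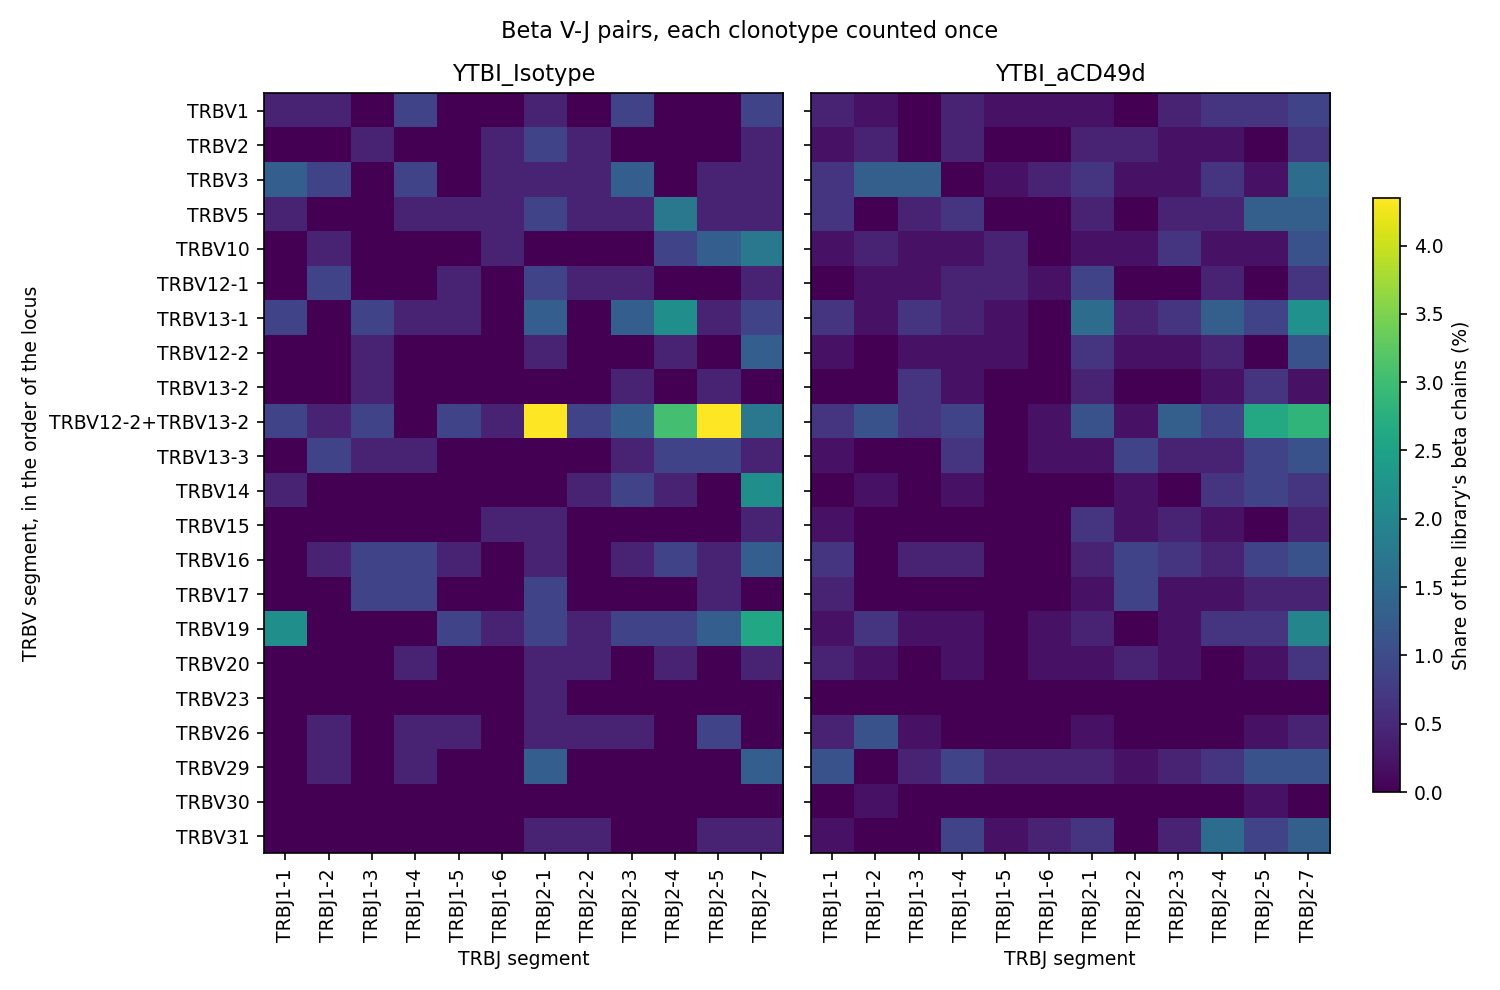
Share of each library's beta chains (colour, percent) that joined each TRBV segment (rows, in the order of the locus) to each TRBJ segment (columns), with each clonotype counted once, in YTBI_Isotype (left) and YTBI_aCD49d (right). The brightest fields are the joint call with TRBJ2-1 and with TRBJ2-5 in YTBI_Isotype, at 4.35% each, which were at 1.10% and 2.63% in YTBI_aCD49d.

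In the alpha chain, the subgroup TRAV3 had a larger share under aCD49d, and the other 12 subgroups with at least 10 chains were within 2-fold. The TRA locus of the mouse holds repeated copies of its V segments, so copies named D and N were joined into subgroups. Of 13 TRAV subgroups tested, 1 was called (7.69%). TRAV3 was used by 3 clonotypes of YTBI_Isotype (1.45%) and 22 of YTBI_aCD49d (5.39%), a difference of 3.94 points (0.571 to 6.84) and a ratio of 3.72 (1.12 to 19.4). The 22 clonotypes joined 14 different TRAJ segments, led by TRAJ7 with 5, and 21 of them were single cells. The 3 of YTBI_Isotype joined 3 different ones. Under each alternative that kept subgroups, TRAV3 differed by at least 3.09-fold.

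The other leading TRAV subgroups had intervals that included equal shares. TRAV7 had 29 (14.0%) and 53 (12.99%), and TRAV6 had 22 (10.6%) and 58 (14.2%). TRAV12 had 27 (13.04%) and 39 (9.56%), and TRAV9 had 21 (10.1%) and 29 (7.11%). TRAV11, the subgroup of the invariant chain, had 20 (9.66%) and 37 (9.07%).

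Subgroups TRAV16 to TRAV21, taken by number as J-proximal, had a smaller share under aCD49d. Copies named D or N were counted with their subgroup, so chains of more distant copies can be included. A T cell that goes on rearranging its alpha locus moves from J-proximal V segments to more distant ones, and from V-proximal J segments to more distant ones. TRAV16 to TRAV21 were used by 24 clonotypes in YTBI_Isotype (11.6%) and 24 in YTBI_aCD49d (5.88%), a difference of -5.71 points (-11.3 to -0.842). In the aged pair this list went the other way, with 24 (6.59%) and 47 (9.36%), a difference of 2.77 points (-1.12 to 6.48). TRAV16 held most of the young clonotypes of this list, with 14 (6.76%) and 17 (4.17%), a difference of -2.60 points (-7.25 to 1.27). TRAV17 had 2 and 2, and TRAV21 had a larger share under aCD49d, with 2 (0.966%) and 5 (1.23%). TRAV19, which had too few chains to be tested and is named after its values were seen, was used by 6 clonotypes of YTBI_Isotype (2.90%) and by 0 of 408 in YTBI_aCD49d, which allows up to 0.735%. The difference was -2.90 points (-6.20 to -0.861). The 6 chains joined TRAJ40, TRAJ42, TRAJ48, TRAJ56 and TRAJ57, all at the V-proximal end. TRAJ40 and above, the V-proximal end of the J segments, took 22.2% and 20.3%, a difference of -1.88 points (-9.22 to 5.04). This interval includes 0 and also the -5.71 points of the TRAV list, so it cannot tell such a difference from none. TRAJ20 to TRAJ39 took 48.8% and 48.3%, and TRAJ19 and below took 28.99% and 31.4%, with intervals of each difference that include 0.

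**Figure D3:**
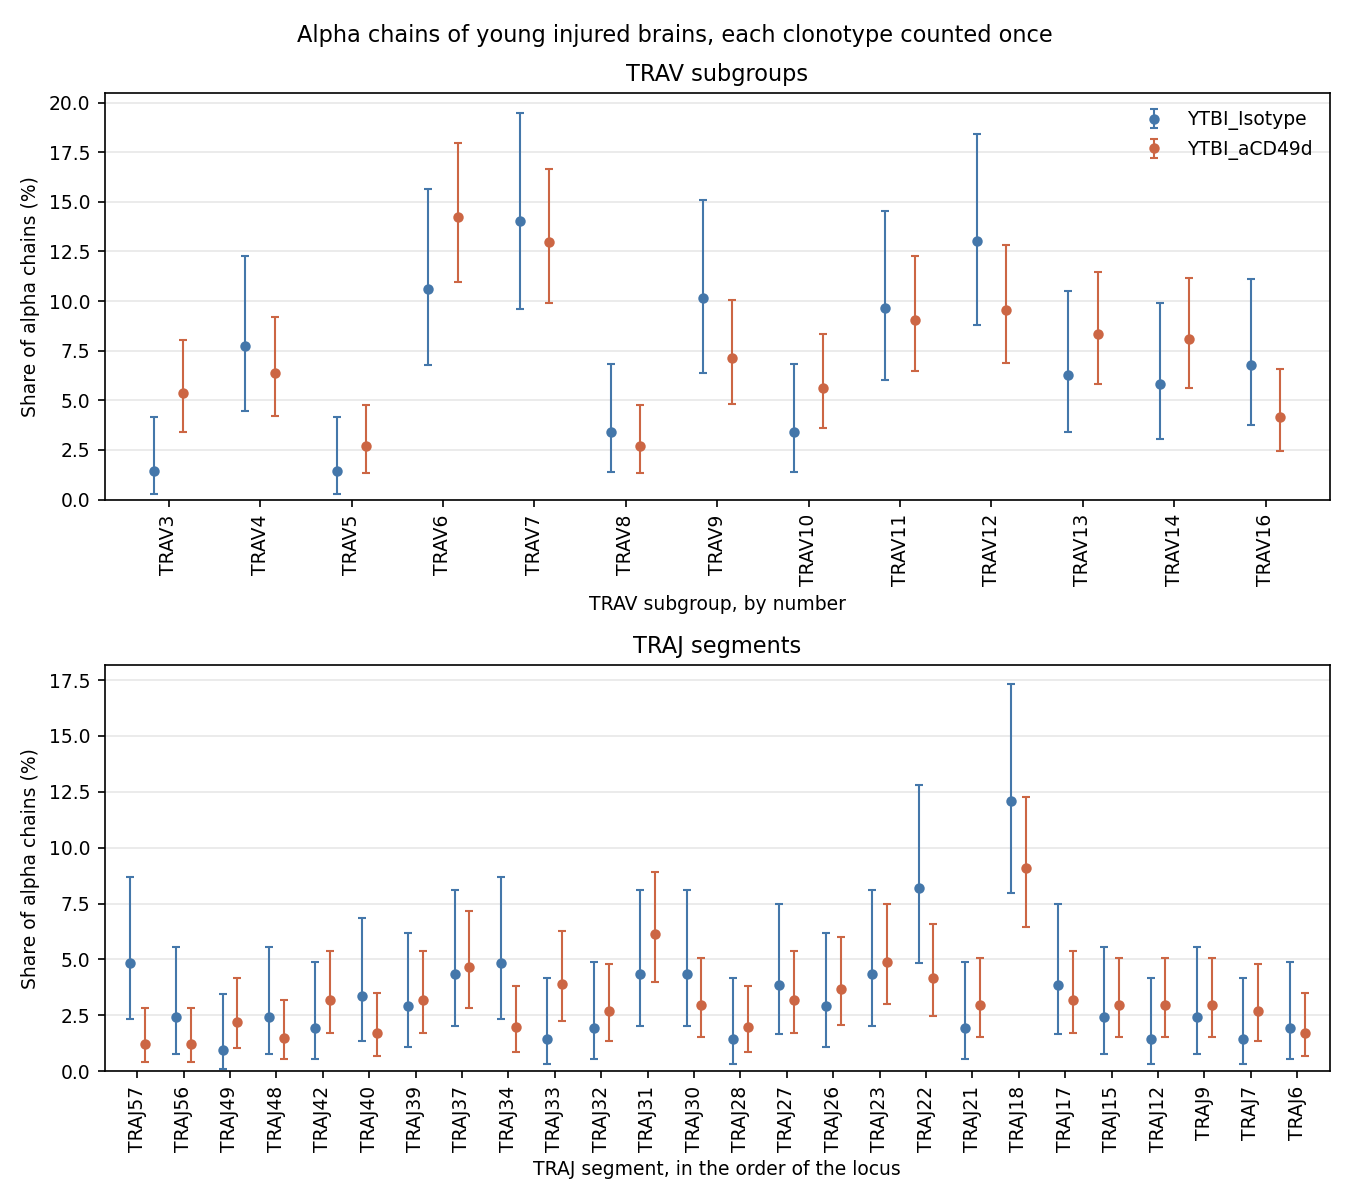
Share of alpha chains (y axis, percent) that used each TRAV subgroup (top, by number) and each TRAJ segment (bottom, in the order of the locus) with at least 10 chains, with each clonotype counted once. Blue points are YTBI_Isotype, orange points YTBI_aCD49d, and bars are exact 95% intervals. TRAV3 stood at 1.45% and 5.39% and TRAJ57, at the left end, at 4.83% and 1.23%.

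Single TRAJ segments differed in both directions. Of 26 tested, 5 were called (19.2%), 3 higher and 2 lower under aCD49d, and the interval excluded 0 for TRAJ57 alone. TRAJ57 was used by 10 clonotypes of YTBI_Isotype (4.83%) and 5 of YTBI_aCD49d (1.23%), a difference of -3.61 points (-7.57 to -0.639). TRAJ34 had 10 (4.83%) and 8 (1.96%), 2.46-fold lower (0.876 to 7.18). TRAJ33, the segment of the mucosal-associated invariant T (MAIT) cell chain, had 3 (1.45%) and 16 (3.92%), a ratio of 2.71 (0.775 to 14.5). TRAJ12 had 3 and 12 and TRAJ49 had 2 and 9, with ratios of 2.03 (0.548 to 11.2) and 2.28 (0.473 to 21.7). The called TRAJ segments thus rest on 2 to 16 clonotypes a side, and most of their intervals include equal use.

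The TRAJ segments with the most chains were not called by clonotype. TRAJ18 led with 25 (12.1%) and 37 (9.07%), mostly through the invariant chain. TRAJ22 had 17 (8.21%) and 17 (4.17%), 1.97-fold lower under aCD49d (0.946 to 4.11). By cell it had 23 (9.87%) and 18 (3.70%), 2.67-fold lower (1.38 to 5.25), a difference of -6.18 points (-10.98 to -2.09). These by-cell intervals count cells of 1 clone as independent. With each clonotype counted once, the TRAJ22 interval includes equal shares. With at least 2 UMIs a chain, TRAJ22 had 13 and 16 clonotypes and was 1.58-fold lower. TRAJ31 had 9 (4.35%) and 25 (6.13%), TRAJ23 had 9 and 20, and TRAJ37 had 9 and 19. By cell, TRAJ31 had 9 chains (3.86%) and 47 (9.65%), a ratio of 2.50 (1.21 to 5.80), and without the largest clones 9 and 26 and a ratio of 1.41 (0.642 to 3.43).

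**Figure D4:**
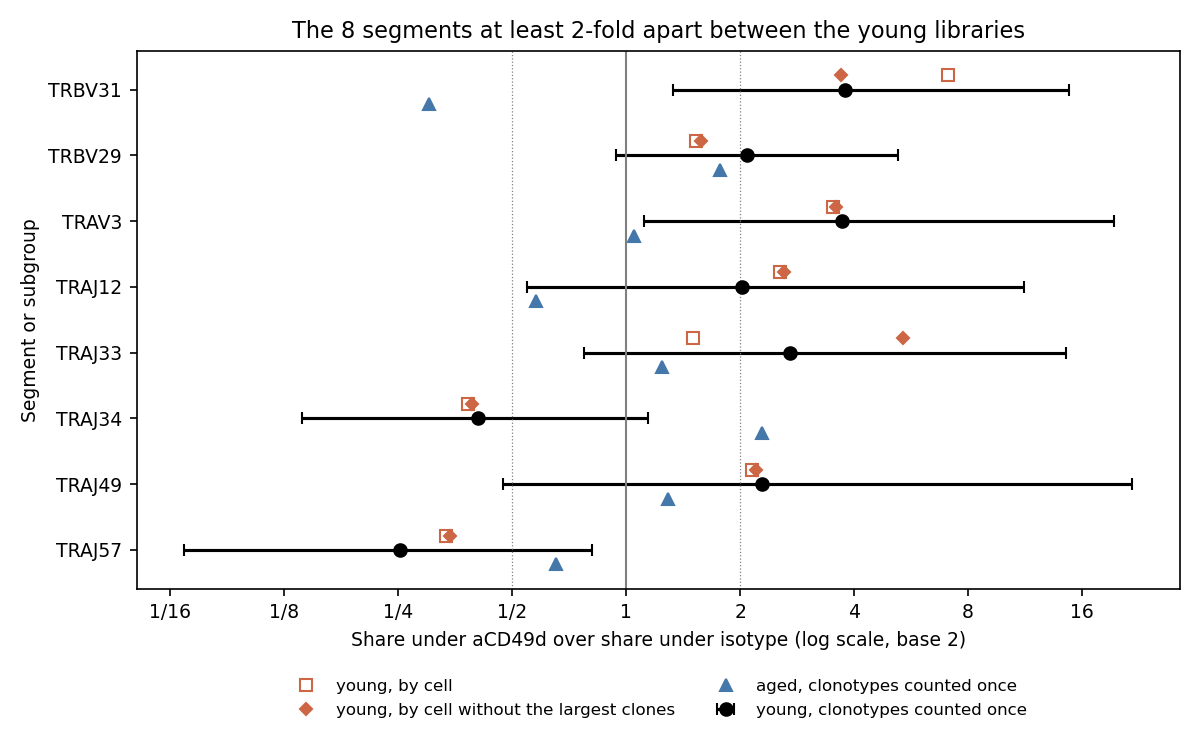
Ratio of the share under aCD49d to the share under isotype (x axis, log scale) for the 8 segments or subgroups called between the young libraries. Black points with 95% intervals count each clonotype once, open squares count cells, diamonds count cells without the largest clone of each library, and blue triangles give the aged pair by clonotype. TRBV31 lies at 3.78 in the young pair and 0.303 in the aged pair.

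Alpha V-J pairs were thinly filled except for the invariant one. Of 20 TRA pairs with at least 5 clonotypes, 9 were called (45%), 6 higher and 3 lower, and no interval excluded 0. TRAV11 with TRAJ18 had 20 clonotypes (9.66%) and 35 (8.58%), a difference of -1.08 points (-6.57 to 3.75), and each of them was a single cell. The next pairs were TRAV7 with TRAJ31, at 4 and 7 clonotypes, and 4 pairs with 6 clonotypes each, among them TRAV6 with TRAJ22 at 2 and 4. The called pairs all had 1 to 5 clonotypes a side. TRAV13 with TRAJ37, TRAV4 with TRAJ17 and TRAV6 with TRAJ34 each had 3 and 2, and TRAV7 with TRAJ37 had 1 and 5. The other 5 called pairs, TRAV6 with TRAJ9 and TRAV7 with TRAJ32 among them, had 1 and 4.

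The invariant chains were alike on both sides in their alpha sequence, and the beta chains beside them were too few for a close comparison. The 4 forms printed above made up 18 of the 20 TRAV11 with TRAJ18 clonotypes of YTBI_Isotype and 31 of the 35 of YTBI_aCD49d. These clonotypes carried 21 and 33 beta chains. The TRBV13 subgroup with the joint call, known as the main partner of the mouse invariant chain, was 17 of 21 (81.0%) and 22 of 33 (66.7%). TRBV29, another known partner, was 1 and 5, and TRBV1, which is also known as one, was 1 and 4. No intervals were computed for these partner shares, so a difference between the libraries cannot be read from them. The deposited evidence column marked both chains as iNKT in 4 and 9 clonotypes. The MAIT pair TRAV1 with TRAJ33 was found in 0 of 207 alpha chains of YTBI_Isotype, which allows up to 1.45%, and in 2 of 408 of YTBI_aCD49d (0.490%).

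Beta CDR3s had nearly the same length in both libraries, with intervals of several points. The mean was 14.02 ± 1.45 residues (SD over 230 clonotypes) in YTBI_Isotype and 13.99 ± 1.40 (456 clonotypes) in YTBI_aCD49d. Short CDR3s of at most 13 residues were 33.9% and 33.99%, a difference of 0.0782 points (-7.75 to 7.68). Long CDR3s of at least 16 residues were 12.2% and 11.4%. The junction, counted as the bases that match neither germline segment, was 10.3 ± 4.16 and 10.1 ± 4.09 bases in the 94.8% and 95.6% of beta chains that could be matched. A CDR3 holds the end of the V segment and the start of the J segment, and segment use can move its length. TRBV31 chains had a mean of 14.0 residues in YTBI_aCD49d and 13.25 in the 4 chains of YTBI_Isotype.

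Short alpha CDR3s had a slightly larger share under aCD49d, with an interval that includes equal shares. The mean was 13.80 ± 1.31 residues (207 clonotypes) and 13.71 ± 1.42 (408 clonotypes). Short CDR3s were 36.2% and 40.7%, a difference of 4.45 points (-4.00 to 12.7). By cell they were 38.2% and 45.2%, a difference of 6.98 points (-0.977 to 14.7), and the alpha chain of the largest clone, 12 residues long, is among the short ones. The greatest gap was at 12 residues, with 10.1% and 15.2% of clonotypes. The alpha junction was 2.75 ± 3.62 and 2.78 ± 3.16 bases, and 19.6% and 17.5% of the matched alpha chains had no base outside the germline segments. Alpha junctions were thus much shorter than beta junctions in both libraries, as is known for a chain without a D segment.

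**Figure D5:**
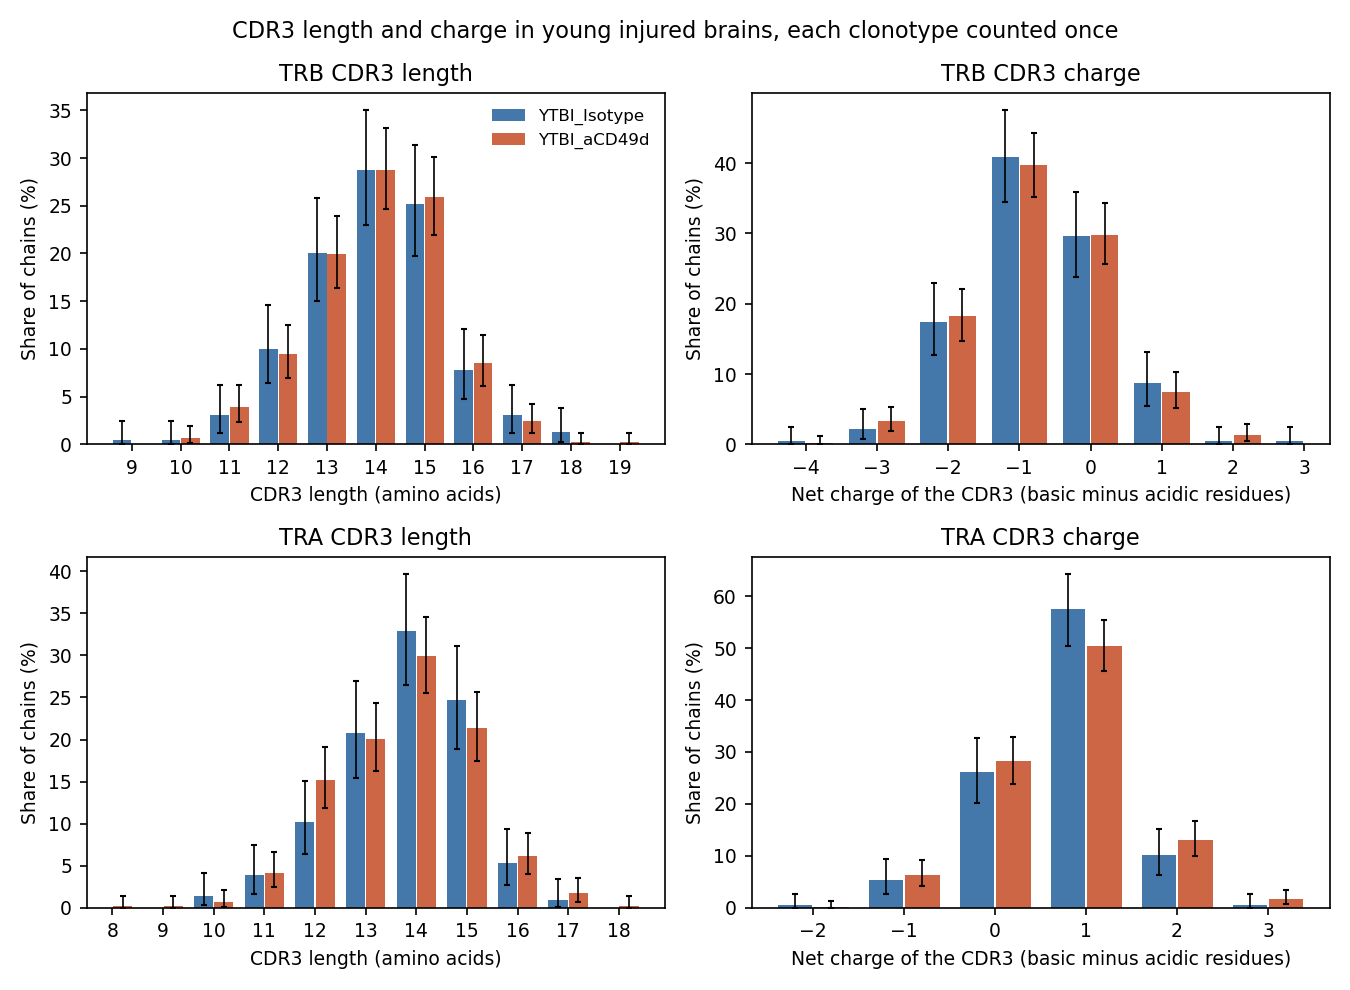
Distribution of CDR3 length (left, amino acids) and net charge (right, basic minus acidic residues) of beta chains (top) and alpha chains (bottom), as the share of chains (y axis, percent) with each clonotype counted once. Blue bars are YTBI_Isotype, orange bars YTBI_aCD49d, and black bars exact 95% intervals. The beta CDR3s lean to negative charge, with 60.9% and 61.4% below 0, and the alpha CDR3s to positive, with 68.1% and 65.2% above 0.

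CDR3 charge, the number of lysines and arginines minus the number of aspartates and glutamates, differed more between alpha and beta chains than between the libraries. Beta CDR3s had a mean charge of -0.730 ± 0.992 in YTBI_Isotype and -0.768 ± 0.998 in YTBI_aCD49d. A charge below 0 was found in 60.9% and 61.4%, a difference of 0.534 points (-7.33 to 8.54). At least 1 acidic residue was found in 83.5% and 84.9% of beta CDR3s, and at least 1 basic residue in 42.6% and 44.1%. Alpha CDR3s had a mean charge of 0.729 ± 0.753 and 0.748 ± 0.834. A charge above 0 was found in 68.1% and 65.2%, a difference of -2.92 points (-10.9 to 5.31). By cell the share of beta CDR3s below 0 was 61.5% and 57.3%, a difference of -4.11 points (-11.4 to 3.33). Without the largest clone of each library this difference was 0.169 points, and the beta CDR3 of the 33-cell clone has a charge of 0.

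Mean beta charge varied from segment to segment. The joint call TRBV12-2+TRBV13-2 had -1.05 in YTBI_Isotype and -1.44 in YTBI_aCD49d, and TRBV3 had -0.267 and -0.412. The 4 TRBV31 chains of YTBI_Isotype had -1 and the 30 of YTBI_aCD49d -0.533, and TRBV29 had -0.625 and -0.364. Among J segments, TRBJ2-7 had -1.15 and -1.23, TRBJ2-5 had -1.33 and -1.12, and TRBJ1-4 had -0.143 and -0.176. TRBJ1-4 was the least negative of these J segments in both libraries. Among J segments not listed here, 2 had a higher mean charge than TRBJ1-4 in both libraries. They were TRBJ2-4, with -0.0741 and -0.149, and TRBJ1-5, with 0.333 and -0.0909 over 9 and 11 chains.

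The largest clones took different segments in the 2 libraries. The largest of YTBI_Isotype had 7 cells and paired TRBV13-3 and TRBJ2-7 with TRAV9-2 and TRAJ33. The largest of YTBI_aCD49d had 33 cells and paired TRBV31 and TRBJ2-4 with TRAV9-2 and TRAJ31. Their alpha chains share the V segment and differ from the junction on:
isotype, 7 cells, alpha: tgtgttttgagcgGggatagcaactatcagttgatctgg
isotype, 7 cells, beta: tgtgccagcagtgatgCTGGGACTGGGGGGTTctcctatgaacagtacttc
aCD49d, 33 cells, alpha: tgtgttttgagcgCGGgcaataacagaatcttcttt
The next clones of YTBI_Isotype had 4 cells each. They paired the joint call and TRBJ2-1 with TRAV7-4 and TRAJ7, and TRBV5 and TRBJ2-1 with 2 alpha chains. The next clones of YTBI_aCD49d had 10 and 7 cells. They paired TRBV10 and TRBJ1-5 with TRAV10N and TRAJ13, and TRBV12-1 and TRBJ1-4 with TRAV12-2 and TRAJ30. Single cells made up 212 (92.2%) and 425 (91.6%) of the clonotypes. Counting by cell also moved segments that these clones do not use. TRBV14 had 13 and 13 cells (4.96% and 2.30%) and TRBV15 had 3 and 15 (1.15% and 2.65%), and both passed 2-fold by cell with intervals that include equal shares. They were named after their values were seen.

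The young libraries shared almost no receptor. No cell barcode and no pair of alpha and beta chains was found in both. By nucleotides, 4 alpha CDR3s were shared, 2.08% of the 192 different ones in YTBI_Isotype and 1.06% of the 376 in YTBI_aCD49d, and 3 of the 4 were invariant forms. A single beta CDR3 was shared, 0.437% of 229 and 0.221% of 453. Both the remaining alpha and the beta CDR3 are short joins:
shared alpha, with TRAJ22: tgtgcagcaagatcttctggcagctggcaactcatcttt
shared beta, with the joint call and TRBJ2-5: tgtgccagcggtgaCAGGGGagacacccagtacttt
The shared alpha CDR3 was joined to TRAV10N in YTBI_Isotype and to TRAV7D-2 in YTBI_aCD49d and has no base outside the germline segments, and the shared beta junction has 6 such bases. By amino acids, 9 alpha and 2 beta CDR3s were shared.

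The distance in segment use between the young libraries lay within that of the other pairs of libraries for TRBV and TRBJ. It was taken as the share of chains that would have to use another segment for equal use, which is 0 for equal use and 100 for no overlap. For TRBV it was 15.7 points between the young libraries, 12.2 between the aged ones and 12.3 to 20.1 between a young and an aged one. For TRBJ it was 10.4 in the young pair, 14.7 in the aged pair and 9.82 to 16.6 across age. For TRAJ it was 21.98 in the young pair and 18.3 to 22.4 across age. For TRAV it was 16.6 in the young pair, the highest of the 6 pairs, and the pairs without YTBI_Isotype had 10.5 to 10.6. YTBI_Isotype is also the smallest library, and the part of library size in these distances was not tested.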

How the data were processed

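Single-cell TCR libraries of YTBI_Isotype and YTBI_aCD49d were compared, with the aged pair beside called segments. Per the submitters' processing notes, the authors used Cell Ranger 7.2.0 with mm10 (mm9 is also listed, with no role given). In the deposited contig tables, each row is a TCR chain of a cell with counts of its UMIs and reads, the segments called and its CDR3. The deposited clonotype tables give for every clonotype its cells, as counts, the fraction of cells it makes up, and evidence columns for iNKT and MAIT receptors. Filtering against the transcriptomes, which the study's methods describe, was not repeated here.

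Each chain was counted once per deposited clonotype, then once per cell. TRAV copies named D or N were joined into subgroups, since near-identical copies can be miscalled, and the joint call TRBV12-2+TRBV13-2 was kept as its own segment. Named were the 5 TRBV, 3 TRBJ, 5 TRAV and 5 TRAJ with the highest mean share, every called segment, the 3 TRB and 3 TRA pairs with most clonotypes, the 3 called pairs with the largest difference each way, and the 3 largest clones of each library. Members, lists and this rule were chosen with earlier results of these data known. No test was run, since there is 1 library per group. Shares have exact Clopper-Pearson 95% intervals, differences Newcombe intervals and ratios exact conditional intervals. A count of 0 was taken to allow up to 3, also when a segment or pair was called. Total UMIs were 4473 and 7483, and no doublet caller was run. The shares and intervals were tested on simulated data. Junctions were matched to GENCODE vM21 transcripts on GRCm38, the assembly of mm10, over at least 6 bases at each end, so a base added by chance equal to germline counts as germline. Alternatives were counting by cell, stricter sets of clonotypes and chains, other limits, and other definitions of segments, CDR3 classes and clonotypes. Scripts ran in Python 3.11.15 with pandas 2.3.3, numpy 2.4.6, matplotlib 3.10.9 and scipy 1.17.1.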

Additional observations from a re-analysis of the deposited data

Results flagged for a closer look

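Of the segments and pairs called between the young libraries, 10 differed at least 2-fold the other way between the aged libraries. The young calls were 2 TRBV, 1 TRAV and 5 TRAJ, with 18 TRB pairs and 9 TRA pairs. The aged pair passed 2-fold for 2 of 20 TRBV, 0 of 13 TRAV and 8 of 36 TRAJ. It did so for 38 of 91 TRB pairs and 16 of 30 TRA pairs, so pairs passed 2-fold often in either comparison. The difference between the young and the aged pair was not tested. TRBV31 was 3.78-fold higher under aCD49d in young brains, with 4 and 30 clonotypes, and 3.30-fold lower in aged brains, with 28 (6.07%) and 10 (1.84%), where the ratio was 0.303 (0.131 to 0.642). Both intervals exclude equal shares. TRAJ34 had a ratio of 0.406 in young brains, with 10 and 8 clonotypes, and of 2.28 (0.9403 to 6.32) in aged brains, with 7 and 22. Calls at least 2-fold the same way in the aged pair were not counted. The called segments not flagged were all within 2-fold there. TRBV29 (aged ratio 1.77), TRAV3 (1.05), TRAJ33 (1.24), TRAJ49 (1.29) and TRAJ57 (0.653) kept their direction, and TRAJ12 (0.580) did not.

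The other 8 flagged calls are pairs with few clonotypes. TRBV13-3 with TRBJ2-7 had a ratio of 2.52 in young brains, with 1 and 5 clonotypes, and of 0.154 in aged brains, with 11 and 2. TRBV19 with TRBJ1-1 had 0.101, with 5 and 1, and 2.97, with 2 and 7. TRBV31 with TRBJ2-7 had 3.03, with 1 and 6, and 0.282, with 3 and 1. TRBV31 with TRBJ2-5 had 2.02, with 1 and 4, and 0.282, with 3 and 1. TRBV16 with TRBJ2-5 had 2.02, with 1 and 4, and 0.339, with 5 and 2. TRBV29 with TRBJ1-4 had 2.02, with 1 and 4, and 0.212, with 4 and 1. TRAV7 with TRAJ37 had 2.54, with 1 and 5, and 0.363, with 2 and 1. TRAV7 with TRAJ32 had 2.03, with 1 and 4, and 0.242, with 3 and 1.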

How the results depend on the processing

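No paired analysis was possible because the young mice were pooled into a single library per treatment, and leaving out a replicate was not possible for the same reason. Over the alternatives, the CDR3 length and charge differences stayed within the intervals given for them. No called segment changed direction in these alternatives. TRAJ18, which was not called, had 5 and 2 clonotypes without the invariant pair. Counts of called segments or pairs moved by more than 1.5 times as follows, and the cause was not tested beyond what each alternative changes by construction. With a 1.5-fold limit there were 7 TRBV, 2 TRBJ, 4 TRAV and 12 TRAJ calls. With the minimum number of chains set to 5 for segments and 2.5 for pairs there were 2 TRAV, 8 TRAJ and 15 TRA pair calls, and with double the usual minimum 0 TRAJ, 3 TRB pair and 0 TRA pair calls. By cell there were 10 TRAJ, 29 TRB pair and 16 TRA pair calls, and by cell without the largest clones 10 TRAJ and 14 TRA pair calls. TRA pair calls were 2 over clonotypes with both chains, and 4 without clonotypes whose chains could come from 2 cells as well as without the invariant pair. With the TRAV copies kept apart, 4 segments were called. The shared CDR3s were 11 by amino acids, and the 464 clonotypes of YTBI_aCD49d came to an expected 224 at the 262 cells of YTBI_Isotype. TRBV31 stayed at 3.38-fold or more in 8 of 8 alternatives and TRAV3 at 3.09-fold or more in 8 of 8. TRBV29 reached 2-fold in 2 of 8, TRAJ12 in 3 of 8 and TRAJ33 in 7 of 8. TRAJ33 had a ratio of 1.504 by cell and 5.38 without the largest clones. Segments with fewer than 10 chains were not tested at the usual minimum. The tested pairs with 0 clonotypes in YTBI_Isotype could not be called at this depth.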
